A study of Mus musculus with 12 samples.

Results

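B lymphocytes and the antibody-secreting plasma cells that arise from them were followed through 9 genes in 12 mouse tumours. The members were Pax5, Ms4a1, Cd22, Cd79a, Cd79b, Ighm, Igkc, Jchain and Mzb1, found by their GENCODE M21 symbols among 34436 gene rows of the deposited table. All 9 were in the table, and all 9 passed the filter on low values that left 17491 genes for testing (a normalised read count of at least 10 in at least 3 tumours). The choice of these genes used no measured value, but it was made with earlier results of these data known.

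The tumours were grown from YUMM1.7, a melanoma cell line established from C57BL/6 mice with mutant Braf. The line was injected into syngeneic hosts, whose tumours are F0, and cells of each dissociated tumour seeded the following passage. Polyadenylated RNA was sequenced from 3 tumours (A, B and C) of the F0 passage, and from as many of N2.1, of Balb/c-2 and of CBA, in that order of transplantation. No other allele, agent or treatment is named for any group, and the labels do not give the age of the hosts. They do not state the host strain of N2.1, Balb/c-2 or CBA either, so any strain difference cannot be told apart from the passage. Nor do they state that the 3 tumours of a passage came from separate mice. The p-values below therefore measure the spread between tumours within passages, which may include shared sources. In the main fit that spread is pooled over all passages.

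B cells recognise antigen with a membrane immunoglobulin whose heavy chain, IgM in a cell that has not switched class, is paired with a kappa or lambda light chain. The immunoglobulin signals through the Cd79a and Cd79b proteins, and Cd22 dampens that signal. Pax5 is the transcription factor that keeps a cell in the B lineage, and Ms4a1 encodes the surface protein CD20. When a B cell becomes a plasma cell it turns Pax5 and most of these surface genes down, makes large amounts of immunoglobulin, and depends on Mzb1 in the endoplasmic reticulum and on Jchain, which joins IgM and IgA chains into polymers. Within a tumour, both kinds of cell come from the host.

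The starts of 3 members are shown because they stand for the ends of that path: Cd79a for the receptor of B cells, Jchain for secretion, and Cd22 because it alone, of the 4 members with a RefSeq entry (build GRCm38.p6), held a match to a motif searched. Each sequence runs from 250 bases before the RefSeq start of the gene to 50 bases after it, 5′ to 3′. Capitals mark a match to a motif.
Cd79a, chr7:24897247-24897546, plus strand: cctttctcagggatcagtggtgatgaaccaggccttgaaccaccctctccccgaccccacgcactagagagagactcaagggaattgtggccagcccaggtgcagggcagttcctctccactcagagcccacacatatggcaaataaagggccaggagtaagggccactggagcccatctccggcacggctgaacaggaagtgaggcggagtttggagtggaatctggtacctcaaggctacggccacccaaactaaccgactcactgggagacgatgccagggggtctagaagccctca
Jchain, chr5:88527848-88528147, minus strand: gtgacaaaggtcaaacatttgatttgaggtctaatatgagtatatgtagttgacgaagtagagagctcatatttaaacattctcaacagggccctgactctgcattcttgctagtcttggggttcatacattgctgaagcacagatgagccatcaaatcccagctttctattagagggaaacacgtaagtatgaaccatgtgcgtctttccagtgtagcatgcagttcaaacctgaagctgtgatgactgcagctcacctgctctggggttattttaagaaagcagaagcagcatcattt
Cd22, chr7:30878979-30879278, minus strand: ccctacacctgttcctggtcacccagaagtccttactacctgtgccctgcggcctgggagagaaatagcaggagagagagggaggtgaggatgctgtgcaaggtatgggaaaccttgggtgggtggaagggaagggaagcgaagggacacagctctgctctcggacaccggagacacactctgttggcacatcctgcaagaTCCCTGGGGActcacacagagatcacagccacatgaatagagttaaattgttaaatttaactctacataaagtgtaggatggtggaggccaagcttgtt
The motifs searched, on both strands, were the octamer ATGCAAAT, the EBF motif (TCCC, any 2 bases, GGGA), GAGGAAGT for ETS factors, CAGCTG for an E-box and TATAAA for the TATA box. The EBF match in Cd22 began 49 bases before the start, and the promoter of Pax5, which was searched too, held none of them, nor did those of Cd79a and Jchain. Of 32851 mouse promoters of the same length, 0.904% held the EBF motif, 1.74% the octamer, 3.2% the ETS motif, 16.3% the E-box and 13.6% the TATA box. A match describes the letters in this window and says nothing of binding.

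The libraries held 34721735 to 59404254 reads. Balb/c-2 A stood apart from the other 11 tumours in lymphoid genes, and each comparison of its passage is given with and without it. By the library names, 7 tumours shared a first flow cell (all of F0 and N2.1, with Balb/c-2 A) and the other 5 a second (all of CBA, with the remaining Balb/c-2 tumours). Values are the authors' normalised read counts, in which 1 read was worth 0.827 to 1.25. Of the melanocyte markers, Tyr did not exceed 0.827 in any tumour and Mlana did not exceed 2.8, while Mitf lay between 318 and 1290 and Pmel between 12.5 and 59.6. Dct did not exceed 7.44, and Sox10 lay between 0.954 (F0 B) and 178 (CBA B). The pigment genes Tyr and Mlana were thus at or near 0 in tumours labelled melanoma, and Pmel was low but present in all 12.

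Pax5, Ms4a1 and Cd22 were chosen as genes of B cell identity and surface. Pax5 (ENSMUSG00000014030, chr4:44524757-44710487, minus strand) was at 19.98, 13.4 and 72.3 normalised read counts in F0 A to C, at 6.62, 8.15 and 12.6 in N2.1, at 3142, 18.7 and 15.4 in Balb/c-2 and at 11.7, 35.6 and 3.74 in CBA. Balb/c-2 A was 43.5 times the next tumour, F0 C, and no other tumour exceeded 72.3. Ms4a1 (ENSMUSG00000024673, chr19:11249675-11266241, minus strand) was at 9.99, 3.82 and 172 in F0, at 2.84, 6.11 and 15.4 in N2.1, at 3014, 12.1 and 14.6 in Balb/c-2 and at 1.80, 16.6 and 2.49 in CBA. Its 3 lowest values rested on 2 or 3 reads each (CBA A, CBA C and N2.1 A), so differences among tumours at that level were not detectable at this depth. Cd22 (ENSMUSG00000030577, chr7:30865402-30880342, minus strand) followed another order, with 98.8, 71.6 and 499 in F0, 499.7, 703 and 597 in N2.1, 2901, 557 and 64.3 in Balb/c-2 and 67.7, 75.9 and 44.8 in CBA. It was high in all 3 N2.1 tumours, in Balb/c-2 A and B and in F0 C, and low in the other 6 tumours, with no value between 98.8 and 499. Cd22 per Ms4a1 count was 0.962 in Balb/c-2 A and 2.89 to 18.75 in F0. This ratio was 38.9 to 176 in N2.1, 45.9 and 4.41 in Balb/c-2 B and C, and 4.57 to 37.5 in CBA. Most of these ratios rest on few Ms4a1 reads. The part of cells other than B cells in the level of Cd22 was not tested.

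The receptor genes are Cd79a, Cd79b and Ighm, which encodes the constant part of the IgM heavy chain. Cd79a (ENSMUSG00000003379, chr7:24897381-24902197, plus strand) was at 21.1, 16.2 and 218 in F0, at 19.9, 7.13 and 26.2 in N2.1, at 10147, 6.53 and 18.01 in Balb/c-2 and at 31.6, 16.6 and 11.2 in CBA. It had the largest ratio of the 9 members between the highest tumour and the next, 46.6, and Balb/c-2 B held its lowest value. Cd79b (ENSMUSG00000040592, chr11:106311341-106314762, minus strand) was at 59.9, 299 and 326 in F0, at 87.1, 55.01 and 83.1 in N2.1, at 8049, 33.6 and 25.7 in Balb/c-2 and at 26.2, 26.1 and 44.8 in CBA. Its partner gene did not share the high value of F0 B: Cd79b was 18.4 times Cd79a there, 2.84 times in F0 A and 1.496 times in F0 C. Ighm (ENSMUSG00000076617, chr12:113418558-113422730, minus strand) was at 526, 1887 and 1444 in F0, at 1323, 2088 and 4088 in N2.1, at 25862, 1629 and 684 in Balb/c-2 and at 347, 403 and 332 in CBA. The CBA tumours held its 3 lowest values.

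Igkc, Jchain and Mzb1 stand for the light chain and for secretion. Igkc, the constant part of the kappa light chain (ENSMUSG00000076609, chr6:70726435-70726966, plus strand), was at 73.3, 4.77 and 892 in F0, at 813, 446 and 1770 in N2.1, at 24386, 888 and 118 in Balb/c-2 and at 1253, 1267 and 858 in CBA. F0 B had 5 Igkc reads beside 1977 Ighm reads. Jchain (ENSMUSG00000067149, chr5:88519809-88527891, minus strand) was at 21.1, 0.954 and 87.7 in F0, at 252, 132 and 517 in N2.1, at 3374, 301 and 65.2 in Balb/c-2 and at 490, 398 and 341 in CBA. After Balb/c-2 A, its 2 highest values were in N2.1 C and CBA A. Mzb1 (ENSMUSG00000024353, chromosome 18, minus strand) was at 11.1, 0.954 and 44.3 in F0, at 36.9, 25.5 and 71.3 in N2.1, at 2539, 28.0 and 14.6 in Balb/c-2 and at 30.7, 7.12 and 13.7 in CBA. Jchain and Mzb1 had 1 read each in F0 B. Mzb1 shares 695 of its 1215 annotated exon bases with another gene on the same strand, Pax5 shares 636 of 8853 with an unclassified gene on the other strand and Cd22 shares 479 of 5042 with an antisense gene, so these 3 counts are uncertain, and whether counting used the strand is not given in the sources used here.

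**Figure D1:**
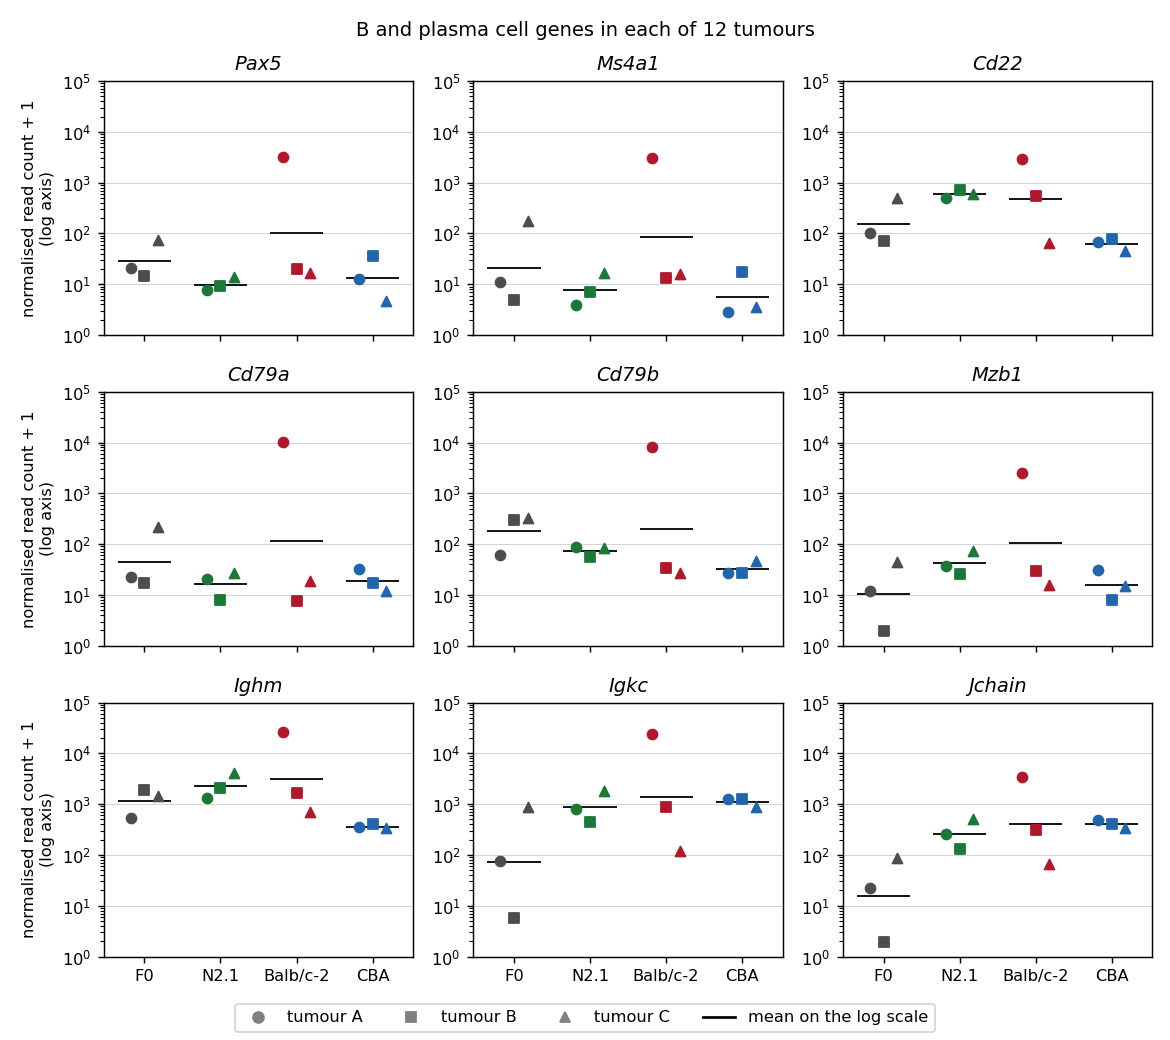
Normalised read count plus 1 (log axis) of the 9 members in each tumour, by passage; colours are passages, symbols are tumours A to C, and the black line is the mean of the 3 tumours on the log scale. In all 9 panels the circle of Balb/c-2 is the highest point, between 2539 for Mzb1 and 25862 for Ighm, while Balb/c-2 B and C lie far below it.

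All 9 members were highest in Balb/c-2 A. The ratio to the next tumour was 46.6 for Cd79a, 43.5 for Pax5, 35.6 for Mzb1, 24.7 for Cd79b, 17.5 for Ms4a1, 13.8 for Igkc, 6.52 for Jchain, 6.33 for Ighm and 4.13 for Cd22. The next tumour was F0 C for Pax5, Ms4a1, Cd79a and Cd79b, N2.1 C for Ighm, Igkc, Jchain and Mzb1, and N2.1 B for Cd22. The mean log2(value + 1) of the members was 12.6 in Balb/c-2 A, against 4.44 to 7.89 in the other 11 tumours. Of all genes tested, 31 (0.177%) were at least 10 times higher in Balb/c-2 A than in any other tumour, and 6 of the 9 members were among them. Any other single tumour had at most 1 such gene. These 31 also held the B cell genes Ighd (5831 in Balb/c-2 A, next 125), Pou2af1 (2529, next 52.0) and Fcrl1 (1318, next 36.6), named after their values were seen. Chemokine genes of lymphoid tissue were among them too, Ccl21a at 3841 (next 37.6), Ccl19 at 1542 (next 42.4) and Cxcl13 at 2842 (next 216).

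Markers of some other cells were also highest in Balb/c-2 A. Of 9 genes listed for lymph node stroma and high endothelium, 4 passed the filter, and all 4 were highest in Balb/c-2 A. Glycam1, a ligand made by high endothelial venules, reached 1452 in Balb/c-2 A, against 0 to 6.66 elsewhere, and Madcam1 reached 292 there, against 0 to 11.6 elsewhere; neither passed the filter. The summed level of the list was 9975 to 12080 in F0, 6976 to 7727 in N2.1, 37670 in Balb/c-2 A, 7882 and 14140 in Balb/c-2 B and C, and 11990 to 14420 in CBA. Mfge8 makes up most of that sum outside Balb/c-2 A (6831 to 14404 in those 11 tumours), and the mean log2(value + 1) of the list was 10.66 in Balb/c-2 A, against 1.96 to 5.07 elsewhere. The list also holds Fcer2a (2816 in Balb/c-2 A) and Cr2 (2436), which mature B cells carry too. Its sum and mean thus partly repeat the signal of B cell genes. Of 15 T cell genes 13 were highest in Balb/c-2 A, where the 15 summed to 28410, against 1142 to 13080 in the other tumours, while 0 of 10 macrophage genes were highest there. Of 8 NK and cytotoxic genes 1 was highest there, and the 8 summed to 9453, against 551.5 to 23160 in the other tumours. The share of all genes highest there by any margin was not counted, so these counts have no background. At a stricter margin, 2.5% of all genes tested were at least 2 times higher there than in any other tumour. Of the 13 T cell genes, Cd8b1 (ratio to the next tumour 1.02), Cd3g (1.57), Cd3e (1.63) and Zap70 (1.975) fell short of that margin. The part of these cells in the level of the 9 members was not tested. In bulk RNA, fewer cells of a type and less RNA per cell cannot be told apart.

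The members were compared with each other per length of annotated exon. In CBA, Igkc averaged 2116 normalised read counts per kilobase, Ighm 191, Jchain 163, Cd79b 22.6, Mzb1 14.1, Cd79a 13.6, Cd22 12.5, Pax5 1.92 and Ms4a1 1.13. In F0 the order was Ighm 682, Igkc 608, Cd79b 159, Cd79a 58.4, Cd22 44.3, Mzb1 15.5, Jchain 14.5, Ms4a1 10.04 and Pax5 3.98. In N2.1 Igkc averaged 1898, Ighm 1325, Jchain 119 and Cd22 119 per kilobase, with Ms4a1 at 1.31. In Balb/c-2 the means, which Balb/c-2 A carries, were 15910 for Igkc, 4980 for Ighm, 2327 for Cd79a, 1889 for Cd79b, 708 for Mzb1, 495 for Jchain, 233 for Cd22, 164 for Ms4a1 and 119.6 for Pax5. The levels of Ighm and Igkc in F0 and of Mzb1, Cd79a and Cd22 in CBA lay within the spread of the 3 tumours of one another.

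Spread within a passage differed between members and between passages. In Balb/c-2 the SD of log2(value + 1) over the 3 tumours ran from 2.74 for Ighm to 5.66 for Cd79a, with a median of 4.01, where the median over all 17491 genes was 0.611. In F0 it ran from 0.971 for Ighm to 3.64 for Igkc (median 2.02, all genes 0.327), so all 9 members varied more than the median gene in both passages. In N2.1 it ran from 0.246 for Cd22 to 1.05 for Ms4a1 (median 0.818, all genes 0.335), with 8 of 9 above the median gene. In CBA the median of the members, 0.437, lay close to that of all genes, 0.424, and 5 of 9 were above it. There Ighm (0.146), Jchain (0.261) and Igkc (0.32) varied less than the median gene, and Pax5 (1.48) and Ms4a1 (1.45) more. In CBA A to C, Pax5 had 13, 30 and 3 reads and Ms4a1 2, 14 and 2, so counting noise enters their SD. Members and all genes were not matched for level. Of all genes tested, 86.6% had a larger SD in CBA than Ighm and 0.137% a larger SD in F0 than Igkc.

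**Figure D2:**
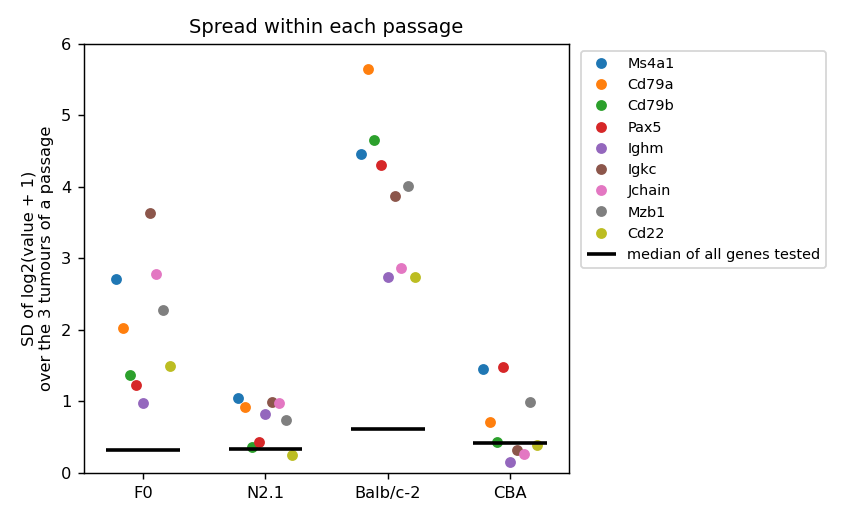
SD of log2(value + 1) over the 3 tumours of each passage (vertical axis) for the 9 members (coloured points); the black lines are the medians of all 17491 genes tested. Every member lies above the line in F0 and Balb/c-2, and the CBA points run from 0.146 to 1.48 around a line at 0.424.

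No member was called by limma at an adjusted p under 0.05 over all genes in any of the 5 comparisons run between passages. None was called by edgeR's quasi-likelihood test on recovered reads either. CBA against N2.1 was not run, so these counts do not cover that pair. Adjusted p-values below use Benjamini-Hochberg adjustment. The 3 comparisons with F0 share its tumours and are not independent of each other. Log2 changes are on the log2(value + 1) scale, which understates the change of low genes.

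N2.1 against F0 asked what differed at the first passage sequenced after F0, with all 6 tumours on one flow cell. Jchain averaged 300.5 ± 197 in N2.1 and 36.6 ± 45.4 in F0 (SD, n = 3 each), a log2 change of 4.05 ± 1.42 (SE, limma adjusted p = 0.105). Igkc averaged 1010 ± 684 in N2.1 and 323 ± 494 in F0 (log2 change 3.57 ± 1.85, limma adjusted p = 0.283). Both are products that plasma cells make in quantity. Cd22 averaged 599.8 ± 102 in N2.1 and 223 ± 239 in F0 (1.95 ± 1.09, limma adjusted p = 0.328), and Pax5 9.14 ± 3.13 in N2.1 and 35.2 ± 32.3 in F0 (-1.51 ± 1.64, limma adjusted p = 0.681). limma called 0 of 9 members, where it called 7.91% of all genes tested, and 1 member, Jchain, had an unadjusted p under 0.05. Fitted to these 6 tumours alone, limma called 0 members and 2615 of 17491 genes, with 2 members at an unadjusted p under 0.05. edgeR and DESeq2 also called 0, where they called 6.25% and 15.2% of all genes, and DESeq2 gave no adjusted p for 5 members. The tumours of both passages did not overlap for Jchain and Cd22, which were higher in N2.1, and for Pax5, which was lower, 3 of 9 where 38.2% of all genes did not overlap. The median log2 change was 0.99 over the members and -0.02 over all genes. Ms4a1 changed direction without F0 C (log2 change 0.07, against -1.45 with it).

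Balb/c-2 against F0 depended on Balb/c-2 A. Jchain averaged 1247 ± 1846 in Balb/c-2 and 36.6 ± 45.4 in F0 (SD, n = 3 each; log2 change 4.70 ± 1.42, limma adjusted p = 0.0946), and Igkc 8464 ± 13790 in Balb/c-2 and 323 ± 494 in F0 (4.24 ± 1.85, limma adjusted p = 0.24). Cd79a averaged 3391 ± 5851 in Balb/c-2 and 85.0 ± 115 in F0 (1.38 ± 2.1, limma adjusted p = 0.782). limma called 0 of 9, where it called 3.51% of all genes, with 2 at an unadjusted p under 0.05, and edgeR called 0, where it called 2.6% of all genes. DESeq2 called Jchain, Igkc and Ighm higher, 3 of 9 where it called 10.9% of all genes, and gave no adjusted p for 5 members. All 9 members overlapped between the passages, where 21.3% of all genes did not. Without Balb/c-2 A, 0 members were called, where 2.55% of all genes were, the median log2 change of the members was -0.10, against 1.84 with all tumours (4.71 with edgeR and 4.72 with DESeq2 on recovered reads), and Ms4a1, Cd79a, Cd79b, Pax5 and Ighm changed direction, while Jchain stood at 3.18 and Igkc at 2.17. Cd79b also changed direction without F0 A (-0.68, against 0.11 with it). The first flow cell held 1 Balb/c-2 tumour, Balb/c-2 A, and the value within that flow cell therefore compares this tumour and not the passage: limma called 7 of 9 members, where it called 2.19% of all genes, on the assumption that the lone tumour varies as the other groups do. It is the tumour in which all 9 were highest, so that count is a description.

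CBA against F0 cannot be told apart from the flow cell, since no CBA tumour shared one with F0. Jchain averaged 409.8 ± 75.0 in CBA and 36.6 ± 45.4 in F0 (SD, n = 3 each; log2 change 4.70 ± 1.42, limma adjusted p = 0.0881). Its CBA values lay between 341 and 490 and its F0 values at 87.7 and below, and without F0 C the adjusted p was 0.0454, the only call of a member in this comparison over the alternatives run. Igkc averaged 1126 ± 232 in CBA and 323 ± 494 in F0 (3.93 ± 1.85, limma adjusted p = 0.288). Cd79b averaged 32.4 ± 10.8 in CBA and 228 ± 146 in F0 (-2.49 ± 1.68, limma adjusted p = 0.486), and Ighm 361.0 ± 37.3 in CBA and 1286 ± 694 in F0 (-1.65 ± 1.04, limma adjusted p = 0.451). limma called 0 of 9, where it called 5.04% of all genes, with 1 at an unadjusted p under 0.05, and edgeR and DESeq2 called 0, where they called 3.88% and 10.2%. Fitted to these 6 tumours alone, limma called 0 members and 622 of 17491 genes, with 4 members at an unadjusted p under 0.05. The tumours did not overlap for Jchain, which was higher, and Cd79b and Ighm, which were lower, 3 of 9 where 29.5% of all genes did not overlap. The median log2 change was -1.19 over the members (-0.39 without F0 C) and -0.08 over all genes. Mzb1 changed direction without F0 B (-0.59, against 0.61 with it) and by edgeR and DESeq2. A flow cell term, which rests on Balb/c-2 A against B and C, turned Ms4a1 (5.81), Cd79a (8.54), Cd79b (5.56), Pax5 (6.34), Ighm (2.97) and Cd22 (2.62) upward in CBA, with 0 members called by limma.

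In Balb/c-2 against N2.1 the tumours did not overlap for Pax5 alone, 1 of 9 where 20.1% of all genes did not. Pax5 averaged 1059 ± 1804 in Balb/c-2 and 9.14 ± 3.13 in N2.1 (log2 change 3.35 ± 1.64, limma adjusted p = 0.337), and its lowest Balb/c-2 value, 15.4, lay just above its highest N2.1 value, 12.6. limma called 0 of 9, where it called 2.32% of all genes, with 0 at an unadjusted p under 0.05, and edgeR and DESeq2 called 0, where they called 1.72% and 7.32%. Without Balb/c-2 A, 0 members were called, where 2.05% of all genes were, the median log2 change was -0.97, against 1.33 with all tumours (4.31 with edgeR and with DESeq2), and Cd79a, Cd79b, Ighm, Igkc, Jchain and Mzb1 changed direction. Cd22 averaged 1174 ± 1515 in Balb/c-2 and 599.8 ± 102 in N2.1 (-0.33 ± 1.09, limma adjusted p = 0.918), and its direction changed without Balb/c-2 C (1.10), and by edgeR and DESeq2. Within the first flow cell, where Balb/c-2 A again stood alone for its passage, the count was 4 of 9, where 1.71% of all genes were called, and it too describes that tumour only.

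CBA against Balb/c-2 compared the last 2 passages sequenced. Ighm averaged 361.0 ± 37.3 in CBA and 9392 ± 14270 in Balb/c-2 (SD, n = 3 each; log2 change -3.09 ± 1.04, limma adjusted p = 0.212), the 1 member of 9 whose tumours did not overlap, where 12.7% of all genes did not. Cd22 averaged 62.8 ± 16.1 in CBA and 1174 ± 1515 in Balb/c-2 (-2.92 ± 1.09, limma adjusted p = 0.276). limma called 0 of 9, where it called 1.04% of all genes, with 2 at an unadjusted p under 0.05, and edgeR called 0, where it called 0.572%. DESeq2 called Cd22 and Ighm lower, 2 of 9 where it called 5.93% of all genes, and limma called Cd22 without Balb/c-2 C. Within the second flow cell, that is without Balb/c-2 A, 0 members were called, where 0.297% of all genes were, and the median log2 change was -0.45, against -2.75 with all 6 tumours (-5.58 with edgeR and -5.63 with DESeq2). There Igkc (1.77), Jchain (1.52), Cd79a (0.68) and Cd79b (0.09) were higher in CBA, the opposite direction to that over all 6 tumours, in which Jchain stood at -0.003. Jchain turned also without CBA B (0.009) and without CBA C (0.121).

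Over the 4 passages together, the limma F test called 0 of 9 members, where it called 10.7% of all genes, with Jchain (adjusted p = 0.0977) and Cd22 (adjusted p = 0.159) at an unadjusted p under 0.05. Without Balb/c-2 A, Ighm was called (limma adjusted p = 0.0445, with 11% of all genes called), with Cd79b at 0.0532 and Jchain at 0.0702.

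Immunoglobulin classes differed between tumours within the heavy chain itself. Of reads in the 8 heavy constant genes, Igha, the constant part of IgA, took 18.4%, 0.592% and 7.66% in F0 A to C, 27.1%, 12.5% and 18.4% in N2.1, 0.192%, 12.6% and 20.8% in Balb/c-2 and 82.4%, 86.9% and 76.5% in CBA. All 3 CBA tumours lay at 76.5% or above and all 9 others at 27.1% or below, with exact 95% binomial intervals from 74.0% to 78.9% in CBA C and from 25.4% to 28.8% in N2.1 A. Group means were 8.88% ± 8.97 in F0, 19.3% ± 7.34 in N2.1, 11.2% ± 10.4 in Balb/c-2 and 81.9% ± 5.22 in CBA (SD, n = 3). Ighm took 70.0% to 97.6% in F0, 51.5% to 80.1% in N2.1, 70.8% to 79.2% in Balb/c-2 and 11.8% to 22.3% in CBA. The gap in Igha thus depends on counting Ighm. Of heavy constant reads other than Ighm and Ighd, Igha took 95.2% to 99.1% in CBA and 56.2% to 66.6% in N2.1. It took 90.2%, 57.1% and 32.0% of them in F0 A to C and 1.45%, 61.6% and 94.6% in Balb/c-2. These shares rest on as few as 21 reads (F0 B). The 4 IgG genes together took most in N2.1 A (21.1%), F0 C (16.3%) and Balb/c-2 A (12.9%). All 8 genes are those of the reference genome, and reads of other strains may map to them differently. An IgG gene that a host carries but the reference lacks would not be counted, which would raise the share of Igha. The labels do not state the host strain of N2.1, Balb/c-2 or CBA, and this effect was not tested. Counts of reads are not independent molecules, so intervals cover counting error only.

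Igha itself is no member, but the classes turn on it. Its normalised read counts were 123, 11.5 and 158 in F0, 697, 325 and 1045 in N2.1, 70.3, 259 and 182 in Balb/c-2 and 2153, 2974 and 1141 in CBA. It was called by limma in CBA against F0 (log2 change 4.95 ± 0.87, adjusted p = 0.00791), and without each of the 6 tumours in turn, with limma, edgeR or DESeq2 adjusted p from 3.7e-07 to 0.424 over 15 alternatives. Of the alternatives, the fit with the flow cell as a covariate ended that call, with a log2 change of 3.339. In N2.1 against F0 it was called too (3.31 ± 0.87, limma adjusted p = 0.0405), but in 7 of 15 alternatives, and of the fits that left out 1 of the 6 tumours the call held in that without F0 C, with adjusted p from 0.00326 to 0.155. With the tumour letter as a block, its adjusted p there was 0.066. Ighg1 was called higher in N2.1 than in F0 (6.46 ± 1.695, limma adjusted p = 0.0398) with 485, 70.3 and 409 in N2.1, against 3.33, 0 and 3.85 in F0. That call was lost without any 1 of the 6 tumours (highest adjusted p 0.151).

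**Figure D3:**
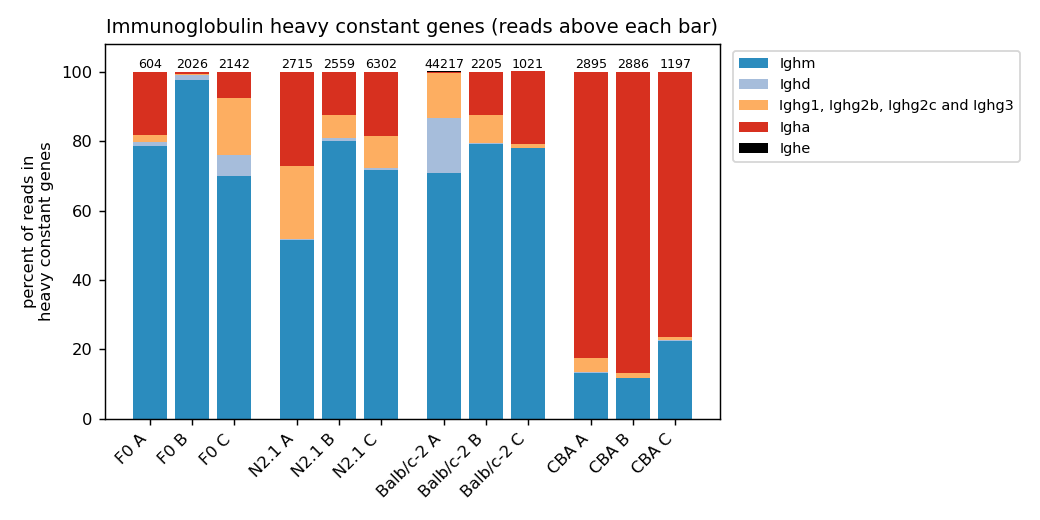
Percent of the reads in 8 immunoglobulin heavy constant genes that fell on each class (stacked bars, one per tumour, with the number of reads above). Igha takes 76.5% to 86.9% in the 3 CBA tumours and at most 27.1% in the others, and Ighd is visible in Balb/c-2 A at 16.0%. The 8 genes are those of the reference genome, so a heavy chain gene that the reference lacks is not shown.

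Balb/c-2 A had the highest share of Ighd and the lowest of Igha of the 12 tumours, while its lambda share lay within the range of F0. Ighd, the heavy chain that unswitched mature B cells carry beside IgM, made up 18.4% of its Ighm and Ighd reads, against 0% to 7.98% elsewhere, with F0 C next. Lambda genes made up 14.2% of its light constant reads, against at most 1.91% in CBA, 4.66% to 9.5% in N2.1, 7.66% and 8.61% in Balb/c-2 B and C, and 10.8%, 37.5% and 15.3% in F0 A, B and C. Igha was at its lowest share there, with 85 of 44217 heavy constant reads. Igkc made up 48.5% of its Igkc and Ighm reads, against 72.1% to 78.3% in CBA, 17.6% to 38.1% in N2.1, 35.3% and 14.8% in Balb/c-2 B and C, and 0.252% to 38.2% in F0.

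Secreted and surface members were set against each other within each tumour, which removes the total of the pair. There were 2.40 Igkc counts for each Cd79a count in Balb/c-2 A, against 0.294 to 4.10 in F0, 40.9 to 67.6 in N2.1, 136 and 6.57 in Balb/c-2 B and C, and 39.7 to 76.6 in CBA. Jchain per Ms4a1 count was 1.12 in Balb/c-2 A, against 0.25 to 2.11 in F0, 21.7 to 88.7 in N2.1, 24.9 and 4.47 in Balb/c-2 B and C, and 24.0 to 272 in CBA. Balb/c-2 A lay within the F0 range for both ratios, and the N2.1 and CBA ranges did not overlap those of F0. Many of these ratios rest on Cd79a or Ms4a1 counts of a few reads, and Cd79a had 7 reads in Balb/c-2 B.

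**Figure D4:**
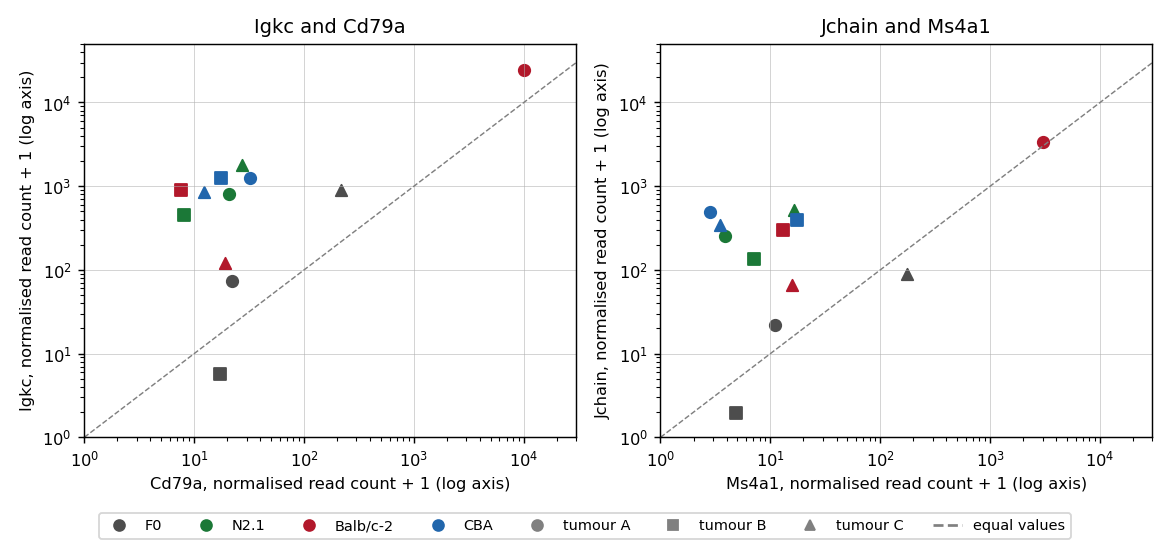
Igkc against Cd79a (left) and Jchain against Ms4a1 (right), in normalised read counts plus 1 on log axes, one point per tumour; the dashed line marks equal values. The N2.1 and CBA tumours and Balb/c-2 B lie well above the line, with 39.7 to 136 Igkc counts per Cd79a count, while the F0 tumours and Balb/c-2 A lie nearer to it, with 0.294 to 4.10.

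The variable segments of the kappa chain differ between receptors. Of 93 kappa variable (Igkv) segments in the table, 90 had a read in Balb/c-2 A, over 5822 reads, and the most used segment, Igkv3-4, took 5.96% (exact 95% interval 5.37% to 6.6%). In CBA 35, 20 and 40 segments had a read, over 294, 118 and 137 reads, and the most used took 12.2%, 17.8% and 7.3%. The N2.1 tumours had 26, 51 and 59 segments over 202, 229 and 611 reads, with Igkv16-104 taking 32.2% in N2.1 A. F0 had 12, 4 and 44 segments over 20, 5 and 216 reads, and Balb/c-2 B and C had 39 and 4 over 267 and 18. The number seen follows the number of reads, so these counts are not compared between tumours, and near-identical segments may share reads.

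Among the members, the 11 tumours other than Balb/c-2 A showed several patterns. Across them, log2 levels of Igkc and Jchain went together (Pearson r = 0.97, Spearman rho = 0.891, n = 11), and r was 0.816 over 9 tumours without F0 A and F0 B. Ms4a1 and Pax5 went together (r = 0.861, rho = 0.791, and 0.811 without CBA A and F0 C), and so did Ighm and Cd22 (r = 0.789, rho = 0.773, and 0.698 without CBA A and CBA C). Cd79b and Jchain ran opposite (r = -0.585, rho = -0.336), and r was -0.314 without F0 A and F0 B. These are descriptions over tumours that share passages and flow cells.

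The genes most like the mean log2 of the 9 members were picked by Pearson correlation. Over the 11 tumours they were Gm8221 (r = 0.907), Alox15 (0.884), Iglc2 (0.871), Apol7c (0.868), Pim2 (0.862), Iglc3 (0.861), Pou2af1 (0.847), Spib (0.843), Fabp5 (0.838) and Aldoc (0.832). Over all 12 tumours, where Balb/c-2 A sets the order, they were Pou2af1 (0.958), Iglc3 (0.945), Cxcr5, Pim2, Spib, A430093F15Rik, Btla, Iglc2, Ccl19 and Cd37 (0.907). Iglc2, Iglc3, Pim2, Pou2af1 and Spib were in both sets. Alox15 was at 64.5 in Balb/c-2 A and 258 in F0 C, so its likeness does not extend to the tumour in which the members peaked.

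Other genes of the B lineage came from lists that were chosen with earlier results of these data known, and some genes stand in 2 of them. Of all genes, limma, edgeR and DESeq2 called 7.91%, 6.25% and 15.2% in N2.1 against F0. In Balb/c-2 against F0 they called 3.51%, 2.6% and 10.9%, and in CBA against F0 5.04%, 3.88% and 10.2%. In Balb/c-2 against N2.1 they called 2.32%, 1.72% and 7.32%, and in CBA against Balb/c-2 1.04%, 0.572% and 5.93%. Of 14 genes of mature B cell surface and survival, 12 were tested and 0 were called in any comparison by limma (2 to 5 at an unadjusted p under 0.05) or edgeR, and 10 were highest in Balb/c-2 A. The share of all genes highest there was not counted. DESeq2 called 1 higher in N2.1 than in F0, 2 higher in Balb/c-2 than in F0, 3 higher in Balb/c-2 than in N2.1 and 4 lower in CBA than in Balb/c-2. Fcer2a and Cr2, which mature B cells and follicular dendritic cells carry, were at 2816 and 2436 in Balb/c-2 A and at 67.4 and 100.2 in F0 C, and neither passed the filter. Of 10 transcription factors of the B lineage, Irf8 was called higher in N2.1 than in F0 (2.01 ± 0.395, limma adjusted p = 0.0118) and Ebf1 lower in CBA than in Balb/c-2 (-3.31 ± 0.56, limma adjusted p = 0.0183). Ebf1, which acts with Pax5 at the start of the lineage, was at 38.8, 15.4 and 36.1 in CBA, against 641, 254 and 143 in Balb/c-2, and its call was lost without Balb/c-2 A, CBA B or CBA C, or with the flow cell as a covariate (adjusted p = 0.0583; highest over 15 alternatives 0.153). The call of Irf8 was lost without F0 B or N2.1 A (highest adjusted p 0.0561). Irf8 is made by dendritic cells and macrophages too, and of 8 genes of conventional dendritic cells 3 were called higher in the same comparison by limma, Xcr1 (3.49), Clec9a (2.64) and Zbtb46 (1.37), as was 1 of 10 macrophage genes, Cd14 (1.985). The 8 dendritic cell genes summed to 5125 to 10880 in N2.1 and 1345 to 3118 in F0, and their part in the level of Irf8 was not tested. limma and edgeR called none of the other 8 factors in any comparison. DESeq2 called 4 of the 10 higher in Balb/c-2 than in F0 and 5 lower in CBA than in Balb/c-2, and 1 higher in each of the other 3 comparisons.

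Of 16 genes of receptor signalling, 15 were tested. Lyn (1.02 ± 0.23, limma adjusted p = 0.0217), Cd72 (1.499 ± 0.34, adjusted p = 0.0229) and Ptpn6 (1.37 ± 0.28, adjusted p = 0.0139) were higher in N2.1 than in F0, and Lyn and Cd72 were lower in Balb/c-2 than in N2.1. limma called none of the other 12 in those comparisons, nor any of the 15 in the other 3 (3, 2 and 7 at an unadjusted p under 0.05), and edgeR's counts were the same, while DESeq2 called 3 lower in CBA than in Balb/c-2. Myeloid cells also express all 3 genes. Macrophage genes summed to 220900 to 248900 in N2.1, 109100 to 203400 in Balb/c-2 and 123600 to 135000 in F0, and their part in these calls was not tested. In N2.1 against F0 the calls of Lyn and Cd72 held in 1 of the 6 fits that left out a tumour, that without F0 B, and that of Ptpn6 was lost without F0 C, N2.1 A or N2.1 C (highest adjusted p over alternatives 0.0771, 0.0831 and 0.0596 for Lyn, Cd72 and Ptpn6). In Balb/c-2 against N2.1 the call of Lyn was lost without any tumour other than Balb/c-2 B, and that of Cd72 without any other than Balb/c-2 A or B. The flow cell as a covariate also ended both calls, with the highest adjusted p over the alternatives (0.186 for Lyn and 0.326 for Cd72).

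Of 13 plasma cell genes, 12 were tested, and Fkbp11, a protein of the endoplasmic reticulum, was the only one called by limma. DESeq2 called 1 higher and 2 lower in N2.1 than in F0, and 1 in each direction in the other 4 comparisons, and edgeR 1 higher in Balb/c-2 than in F0 and 1 higher than in N2.1. Fkbp11 was lower in N2.1 than in F0 (-2.62 ± 0.68, limma adjusted p = 0.0388) and higher in Balb/c-2 than in N2.1 (3.96 ± 0.68, limma adjusted p = 0.0109), which in the first of these is the other direction from Jchain. The call against F0 was lost without any tumour other than N2.1 A (highest adjusted p 0.117) and with the tumour letter as a block (0.0631). The call against N2.1 was lost without Balb/c-2 C and with the flow cell as a covariate, which gave the highest adjusted p, 0.138. Sdc1, the surface marker of plasma cells, lay between 6382 and 14159 in all 12 tumours. Prdm1, the transcription factor of plasma cells, was at 2706, 1044 and 3864 in CBA, against 477, 977 and 593 in F0. In N2.1 it was at 527, 988 and 776, and in Balb/c-2 at 618, 1795 and 275. Neither Sdc1 nor Prdm1 was highest in Balb/c-2 A, where Jchain, Mzb1 and Igkc peaked. The part of cells other than plasma cells in the levels of Sdc1 and Prdm1 was not tested. Tnfrsf17, the receptor found mainly on plasma cells, did not exceed 11.2 in any tumour and did not pass the filter. Of 9 germinal centre genes 8 were tested. Bcl6 was higher in N2.1 than in F0 (1.42 ± 0.37, limma adjusted p = 0.0404), a call lost without any 1 of the 6 tumours (highest adjusted p 0.125) and with the tumour letter as a block (0.0537), and Efnb1 lower in Balb/c-2 than in N2.1 (-1.21 ± 0.28, limma adjusted p = 0.0496), a call lost without any tumour other than Balb/c-2 A or B and with the flow cell as a covariate, which gave the highest adjusted p, 0.421.

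Of 7 ligands that attract B cells or keep them alive, all were tested. Tnfsf13b, which encodes the survival factor BAFF, was at 540, 633 and 510 in CBA, against 151, 148 and 133 in F0 (1.95 ± 0.36, limma adjusted p = 0.00948), and its call held without each of the 6 tumours in turn but not with the flow cell as a covariate (highest adjusted p over the alternatives 0.169). Cxcl12, a chemokine that holds plasma cells in their niche, was lower in N2.1 (-1.79 ± 0.48, limma adjusted p = 0.043) and in CBA (-2.30 ± 0.48, limma adjusted p = 0.0186) than in F0. The first call was lost without any tumour other than F0 A (highest adjusted p 0.177) and with the tumour letter as a block (0.0689). The second was lost without F0 B, CBA A or CBA C and with the flow cell as a covariate, which gave the highest adjusted p, 0.356. limma called none of the remaining 5 ligands, while DESeq2 called 2 of the 7 higher and 1 lower than in F0 both in N2.1 and in Balb/c-2. Of 8 early B lineage genes 7 were in the table and 3 were tested. Igll1 and Rag2 did not exceed 1.11 in any tumour and Rag1 did not exceed 5.73. Vpreb3 was at 355 in Balb/c-2 A, against 0 to 11.9 elsewhere, and did not pass the filter. Vpreb1 reached at most 32.6 (Balb/c-2 C) and Dntt at most 35.5 (Balb/c-2 B). Cd93, which endothelial and myeloid cells express too, was lower in CBA than in F0 (-1.89 ± 0.46, limma adjusted p = 0.0385), a call lost without any tumour other than F0 C (highest adjusted p 0.153) and with the flow cell as a covariate (0.0555).

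**Figure D5:**
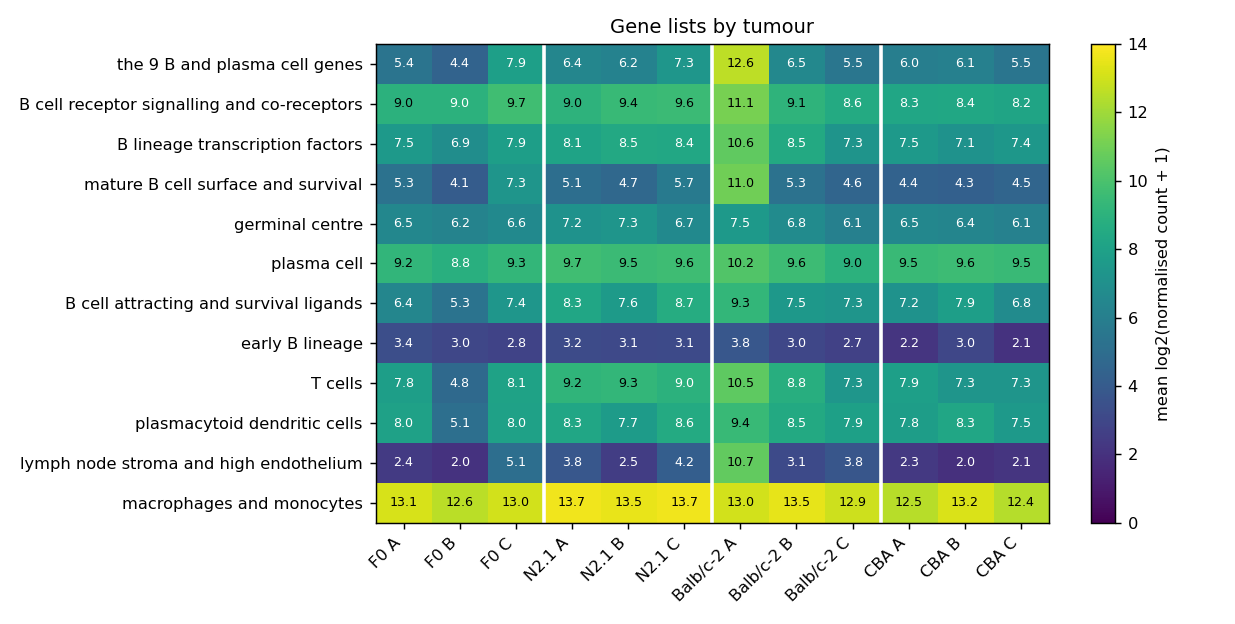
Mean log2(normalised count + 1) of the 9 members and of 11 other gene lists (rows) in each tumour (columns, in passage order), with the value in each cell. Balb/c-2 A is the highest column for the members (12.6), mature B cell genes (10.98), lymph node stroma (10.7) and T cells (10.5), and not for macrophages (13.0). The lists of mature B cell genes and lymph node stroma share Fcer2a and Cr2.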

How the data were processed

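Polyadenylated RNA of 12 tumours was sequenced. Per the submitters' processing notes, HISAT2 2.0.5, StringTie 1.3.3b and featureCounts 1.5.0-p3 were used with the mm10 build, the C57BL/6 reference, against which reads of other strains may map differently. The deposited table holds a signal per gene and per transposable element, which the authors made by dividing read counts by 1 factor per library. This was read from the values, all of which were whole multiples of 1 read within 0.1 reads. Depth is given per library in reads, and intervals cover counting error only.

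The filter kept genes that reached a normalised count of 10 in 3 or more tumours. The limma test (limma 3.58.1, R 4.3.3, trend and robust) was fitted to log2(value + 1) with 1 mean per passage over all 12 tumours, with Benjamini-Hochberg adjustment over all 17491 genes and a threshold of 0.05. edgeR 4.0.16 and DESeq2 1.42.0 on recovered reads, other pseudocounts, no filter, quantile normalization, the 6 tumours compared alone, the flow cell, the tumour letter and leaving out each tumour were alternatives. Fits without Balb/c-2 A in the F test and with Balb/c-2 A alone were added after seeing the data. The fit was tested on simulated data.

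All 9 members are given in every tumour. From other lists, the first 4 genes written and any gene called could be named, with the 10 genes most like the members. Some genes outside that rule were named too, among them Mlana, Pmel, Madcam1, Mfge8, Rag1, Rag2 and Dntt. The members and lists were chosen with earlier results of these data known. Exact tests on 3 against 3 tumours cannot go below p = 0.1 and were not used. No 2 libraries of a passage agreed within sampling noise. The labels do not say what the tumour letters share. Deviations from the passage mean of same-letter tumours of N2.1 and F0 correlated at 0.203, 0.478 and 0.181 for A, B and C, so blocked values are given beside the calls they end in that comparison. Some unlike-letter pairs correlated as much, F0 C with N2.1 A at 0.234, so the letters are not shown to pair these tumours.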

Additional observations from a re-analysis of the deposited data

How the results depend on the processing

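Counts of members called were 0 in the 5 comparisons and changed in these fits. In Balb/c-2 against F0 there were 3 with DESeq2, 5 with a flow cell term and 7 with Balb/c-2 A alone. In Balb/c-2 against N2.1 there were 3 with the flow cell and 4 with Balb/c-2 A alone (the only Balb/c-2 tumour of the first flow cell and the highest in all 9 members, so these counts describe that tumour), and in CBA against Balb/c-2 there were 2 with DESeq2. The flow cell term rests on Balb/c-2 A against B and C. Leaving out 1 tumour gave 0 to 1 in CBA against F0 and in CBA against Balb/c-2. With the tumour letter as a replicate block, 0 members were called in each comparison. Over all passages the letters did not pair the tumours (same-letter correlations of deviations -0.407 to 0.478, with 7 of 18 over 0.1, beside 15 of 36 unlike-letter pairs over 0.1). In N2.1 against F0 all 3 same-letter pairs were over 0.1. So were the unlike-letter pairs F0 C with N2.1 A (0.234) and F0 A with N2.1 C (0.126). In that comparison the block ended the calls of Igha, Fkbp11, Bcl6 and Cxcl12 and of no other named gene. Without a tumour, log2 changes of members that turned direction ran as follows. In N2.1 against F0, Ms4a1 ran from -2.51 to 0.071. In Balb/c-2 against F0, Ms4a1 ran from -0.55 to 3.55, Cd79a from -1.87 to 3.33, Cd79b from -2.58 to 1.54, Pax5 from -0.64 to 3.15 and Ighm from -0.095 to 2.52. In CBA against F0, Mzb1 ran from -0.59 to 1.68. In Balb/c-2 against N2.1, Cd79a ran from -0.48 to 4.72, Cd79b from -1.29 to 2.82, Ighm from -1.09 to 1.53, Igkc from -1.41 to 2.43, Jchain from -0.88 to 1.96, Mzb1 from -0.97 to 2.70 and Cd22 from -1.64 to 1.10. In CBA against Balb/c-2, Cd79a ran from -4.52 to 0.68, Cd79b from -4.03 to 0.087, Igkc from -2.07 to 1.77 and Jchain from -1.31 to 1.52. Other settings turned Mzb1 in CBA against F0 (-0.073 with edgeR, -0.10 with DESeq2), Cd22 in Balb/c-2 against N2.1 (1.035 with edgeR, 1.02 with DESeq2, 2.29 with the flow cell or with Balb/c-2 A alone) and Jchain in CBA against Balb/c-2 (0.002 with a pseudocount of 0.1). The flow cell turned Ms4a1 (5.81), Cd79a (8.54), Cd79b (5.56), Pax5 (6.34), Ighm (2.97) and Cd22 (2.62) in CBA against F0, and Cd79a (0.68), Cd79b (0.087), Igkc (1.77) and Jchain (1.52) in CBA against Balb/c-2; the cause was not tested. Of the member values under alternatives, 629 kept direction and side of the threshold, 38 turned and 26 passed the threshold; of those for other named genes, 170 kept theirs and 104 lost the call. Members with 1 to 20 reads in a tumour (Ms4a1, Pax5, Mzb1, Cd79a, Jchain and Igkc) are limited by depth.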
